A study of Mus musculus with 12 samples.

Results

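The m6A peaks described here lie in internal exons, that is, in an exon that is neither the first nor the last of the transcript to which the peak was annotated. They were chosen by that annotation alone (exon K of N, with K above 1 and below N), without use of any peak height or genotype difference. They numbered 3813 of the 33622 peaks called in wild-type (WT) hippocampus (11.3%, exact 95% interval 11 to 11.7) and 3728 of the 34935 peaks called in Tyrobp-/- (Tyrobp KO) hippocampus (10.7%, 10.3 to 11). A further 509 of 5640 rows (9.02%) were in a table comparing the genotypes, of which only the positions and annotation were used. The WT peaks lay in 2674 genes and the Tyrobp KO peaks in 2589 genes, and 1873 genes had such a peak in both lists (70.0% of the WT genes and 72.3% of the Tyrobp KO genes).

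Methylated RNA immunoprecipitation sequencing (MeRIP-seq) was performed on hippocampus of 6-month-old male C57BL/6 mice. Tyrobp KO mice carried a TALEN-made deletion in Tyrobp, which encodes an adaptor protein of microglial receptors, in all cells and from conception, and the controls were age-matched WT littermates with no other treatment in either group. Each of the 3 samples per genotype was RNA pooled from the hippocampi of 3 mice, and was sequenced after immunoprecipitation (IP) and as input RNA. The 12 libraries held between 61189368 and 73554506 valid reads. Peaks were called on all libraries of a genotype together, so each peak has 1 value per genotype, no spread between samples can be given and no difference between genotypes was tested. The intervals below cover counting over peaks only. Tyrobp itself had no peak in either list, so the lists hold no check of the knockout. All 5 neuronal markers, all 6 astrocyte markers and all 6 oligodendrocyte markers had a peak of some class in both lists, as did 8 of 9 microglial markers, with Trem2 the exception. Of 6 markers of hypothalamic neurons, 3 had a peak in WT and 1 in Tyrobp KO.

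N6-methyladenosine (m6A) is set on mRNA by a nuclear writer complex around METTL3 and METTL14, mainly at adenosines of short motifs such as GGACT, and is bound by reader proteins of the YTH family. In most mRNAs the mark is concentrated near the stop codon and in the 3′ UTR, and short internal exons flanked by splice junctions carry little of it. Unusually long internal exons, which are frequent in genes for giant scaffold, synaptic and chromatin proteins, are a known exception.

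Sequence of the reference genome was held for a few of these peaks, where the peak runs into a RefSeq window of the same build (GRCm38.p6). The first stretch is shown because it lies in the giant exon of Ank2, which encodes ankyrin-B, an adaptor that ties membrane proteins to the spectrin skeleton in axons. In that exon (exon 37 of 46, chromosome 3, minus strand) 4 peaks of 1 block each spanned 5519 bases in WT and the same 5519 bases in Tyrobp KO, from 126942168 to 126947686. The peak that the sequence belongs to ran from 126943427 to 126944447 in WT, with a fold enrichment of IP over input of 2.6 and a log10 false discovery rate (FDR) of -141. In Tyrobp KO it ran from 126943457 to 126944447, with a fold enrichment of 2.69 and a log10 FDR of -117. The stretch below is the part of the WT peak at chr3:126943427-126943636, read 5′ to 3′ on the transcript strand, with matches to 6 m6A motifs (GGACT with its forms GGACA and GGACC, the form AGACT, and the forms AAACT and GAACT) in capitals.
Ank2: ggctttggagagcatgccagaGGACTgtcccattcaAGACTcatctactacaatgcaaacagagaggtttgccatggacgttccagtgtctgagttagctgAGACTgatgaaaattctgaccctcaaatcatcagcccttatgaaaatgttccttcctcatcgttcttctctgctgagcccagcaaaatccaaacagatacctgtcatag
It held 3 matches, of which 1 was GGACT. Among the 32851 RefSeq windows upstream of gene starts, cut to the same length of 210 bases, 72.7% held at least 1 of the 6 motifs and 18.4% held GGACT, so matches in a stretch of this length are common. The second sequence is shown because the peak has exactly the limits of an annotated hairpin. It lies at chr5:24592114-24592211 on the plus strand, in exon 4 of 5 of Chpf2, which encodes a chondroitin sulfate polymerizing factor, and coincides with the hairpin of Mir671. In both lists the row names Mir671 as its gene, so these limits may be those of the gene model. They do not show that enrichment was confined to the hairpin.
Mir671 hairpin: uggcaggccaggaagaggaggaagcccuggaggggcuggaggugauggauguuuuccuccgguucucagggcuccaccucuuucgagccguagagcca
This peak had a fold enrichment of 14.4 in WT (log10 FDR -119) and 9.11 in Tyrobp KO (log10 FDR -91). None of the 6 motifs was in its 98 bases, against 46.1% of 204 hairpins cut to that length that held at least 1. The third stretch comes from exon 8 of 11 of Bhlhb9 on the X chromosome, plus strand, at chrX:135885601-135885736, the end of a WT peak with a fold enrichment of 3.23 and a log10 FDR of -21.1, and is shown as a stretch with a motif other than GGACT.
Bhlhb9: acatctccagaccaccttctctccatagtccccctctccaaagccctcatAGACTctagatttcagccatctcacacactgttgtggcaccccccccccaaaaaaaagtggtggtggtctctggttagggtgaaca
It held 1 match, an AGACT. In windows cut to the same 136 bases, 57.8% held at least 1 of the 6 motifs. Such sequence was also held for some other internal-exon peaks, among them peaks of St7 and Gm46430, and is not shown. No genome was used here, so motifs were not counted over the internal-exon peaks as a whole.

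Peaks in internal exons were lower in fold enrichment than those in every other class of the same list. Their median was 4.32 in WT (interval 4.15 to 4.41) and 4.41 in Tyrobp KO (4.29 to 4.59), against 5.54 and 5.72 over all peaks. The neighbouring classes were higher, at 6.84 and 6.67 for first exons, the same 6.84 and 6.67 for last exons, and 5.20 and 5.28 for the 3′ UTR. The values 6.84 and 6.67 are also the most often repeated fold enrichments of internal-exon peaks in WT and Tyrobp KO. The part of such repeated values in the first- and last-exon medians was not tested. Fold enrichments below 2 were listed for 15.8% of the WT and 12.4% of the Tyrobp KO internal-exon peaks, against 9.56% and 8.42% of all peaks, and values of at least 10 for 13.3% and 13.2%, against 21.8% and 22.0%.

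**Figure D1:**
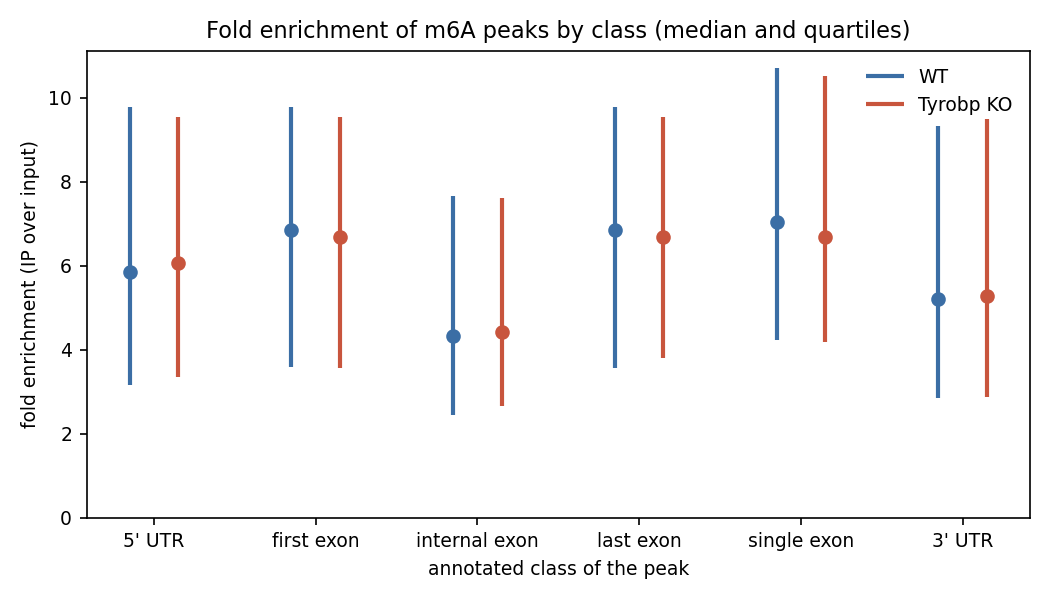
Fold enrichment (IP over input, linear axis) of the peaks of each annotated class, as the median (point) and quartiles (line) for WT and Tyrobp KO. The internal-exon medians of 4.32 and 4.41 are the lowest of the 6 classes in both genotypes.

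The order of the classes was different for the peak-calling FDR, which grows stronger with read depth as well as with enrichment. The median log10 FDR of internal-exon peaks was -11.4 in WT and -10.4 in Tyrobp KO, close to the median of all peaks (-12.5 and -11.6). First-exon peaks were much weaker by this measure, at -3.48 and -3.44, and so were last-exon peaks, at -3.30 and -3.13. Peaks of the 3′ UTR were much stronger, at -37.8 and -35.3. An FDR below 1e-05 was reached by 2417 WT and 2366 Tyrobp KO internal-exon peaks (63.4% and 63.5%), near the 64.4% and 63.3% of all peaks. At the other end, 381 WT and 440 Tyrobp KO peaks in internal exons (9.99% and 11.8%) were listed with an FDR of at least 0.05.

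The same gradient was present within the internal exons. The 914 WT peaks in exon 2 had a median fold enrichment of 4.88 and the 571 in exon 3 one of 4.6, while the 1860 peaks further in had 3.91, and the 910 in the exon next to the last had 5.44. In Tyrobp KO these medians were 5.06, 5.1, 3.96 and 5.72. Just outside the rule, the 1771 first-exon and 3727 last-exon peaks of WT both stood at 6.84, the repeated value named above. The median log10 FDR went the other way, from -5.87 in exon 2 to -19.8 in the inner exons and -5.69 next to the last exon in WT, and from -6.75 to -16.7 and -6.06 in Tyrobp KO. The inner exons thus held peaks of low enrichment and strong FDR. A peak in exon 2 of 3 exons counts both as exon 2 and as next to the last, which applied to 277 WT and 281 Tyrobp KO peaks.

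**Figure D2:**
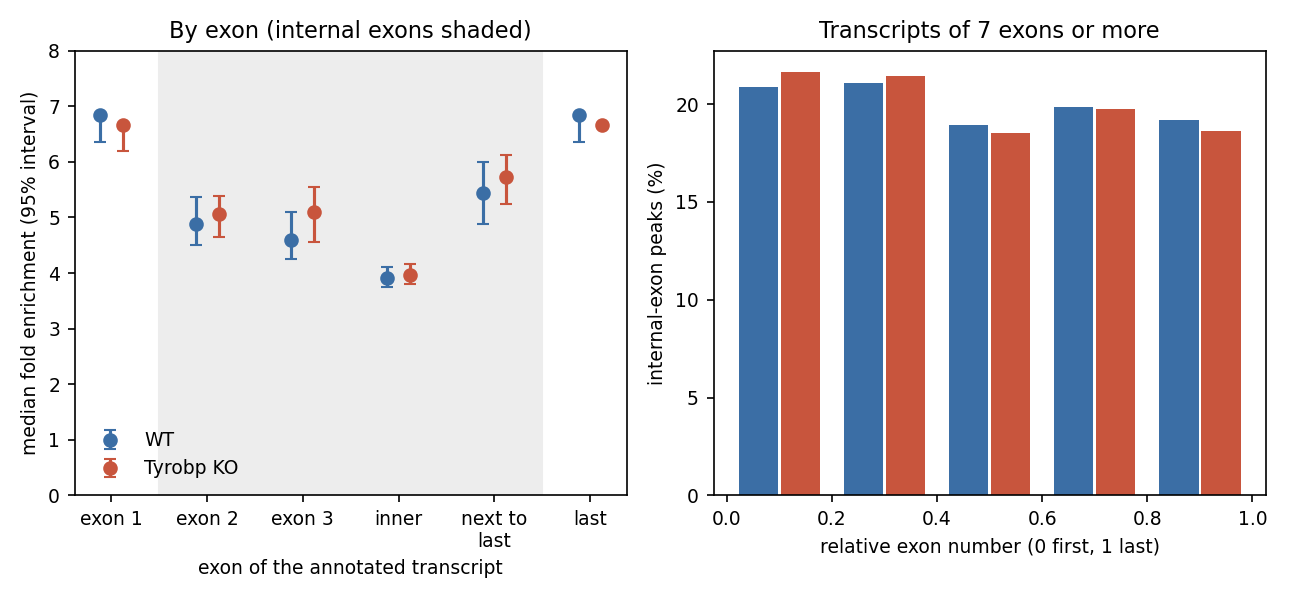
Left, median fold enrichment by exon of the annotated transcript with its 95% interval, for exon 1 and last exons (outside the shading) and for internal exons (shaded). Right, percent of internal-exon peaks in each of 5 equal ranges of the relative exon number, for transcripts of at least 7 exons. The inner exons are lowest, at 3.91 in WT and 3.96 in Tyrobp KO, and the 5 ranges hold between 18.5% and 21.7%.

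The shares of peaks in ranges of the exon number were close to each other. The median peak lay in exon 5 of a transcript of 11 exons in both lists. In transcripts of at least 7 exons (2708 WT and 2605 Tyrobp KO peaks), 5 equal ranges of the exon numbers from first to last held 20.9%, 21.1%, 18.9%, 19.9% and 19.2% of the WT peaks, and between 18.5% and 21.7% of the Tyrobp KO peaks. First and last exons are outside the rule, so the ranges do not hold equal numbers of internal exons. Peaks per available exon were not counted, so an even spread is not shown. Exon 2 held 24.0% of the WT and 25.1% of the Tyrobp KO peaks, and the exon next to the last 23.9% and 23.5%. Transcripts of at least 20 exons held 25.4% and 26.2%.

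Peaks are built of blocks, 1 per exonic stretch of the gene model used in peak calling. Internal-exon peaks of a single block made up 57.3% in WT and 59.6% in Tyrobp KO, fewer than over all peaks (71.1% and 73.5%) and than in last exons (94.2% and 93.6%). The remainder crossed at least 1 splice junction, with 2 blocks in 1170 WT and 1111 Tyrobp KO peaks and 3 or more in 457 and 395. The single-block peaks had a median fold enrichment of 3.65 in WT and 3.90 in Tyrobp KO, below the 5.82 and 5.72 of peaks with more blocks. The median width with introns left out was 301 bases in both lists, against 326 in WT and 301 in Tyrobp KO over all peaks. A width of at least 1000 bases was found for 307 WT and 246 Tyrobp KO peaks (8.05% and 6.60%, against 10.3% and 9.06% of all peaks).

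A single-block peak crosses no intron of the gene model used in peak calling, which need not be the annotated transcript. Of 1430 overlaps between single-block WT and Tyrobp KO peaks of the same transcript, 5 joined peaks annotated to different exons, in 5830417I10Rik, Cfap65, Pnn and Trim65. Widths are therefore not read as exon lengths. At least 400 bases were covered by 709 of the WT (32.4%) and 750 of the Tyrobp KO (33.8%) single-block peaks. In 305 WT and 308 Tyrobp KO exons, 2 or more such peaks were annotated to the same exon, and these exons held 34.9% and 35.7% of the single-block peaks. The outermost ends of the peaks were a median of 1171 bases apart in these WT exons and 1290 in these Tyrobp KO exons, with the widest at 7140 and 6360 bases.

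The widest single-block pair, present in both genotypes, was in Bsn, which encodes bassoon, a giant scaffold protein of the presynaptic active zone. In exon 5 of 12 (chromosome 9, minus strand) 1 WT peak covered 5484 bases, from 108110019 to 108115502, with a fold enrichment of 12.7, and 1 Tyrobp KO peak covered 5094 bases, from 108110109 to 108115202, with 12.8. The next was in Map1a, a microtubule-associated protein of neurons. Both lists had the same 4046 bases of its exon 5 of 7 (chromosome 2, 121303243 to 121307288), with a fold enrichment of 7.12 in WT and 6.26 in Tyrobp KO. The other pairs were in 5830417I10Rik (2310 and 3120 bases, fold enrichment 8.57 and 6.87, annotated to exon 15 in WT and exon 16 in Tyrobp KO), in Acan, which encodes the proteoglycan aggrecan of perineuronal nets (2160 and 2910 bases, 20 and 39.1), and in the kinesin gene Kif26a (2636 and 2127 bases, 19.9 and 17.4). Of these 5, the Acan values lay furthest apart, and they stayed under 2-fold.

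Most genes had a single internal-exon peak, 1979 of 2674 in WT and 1900 of 2589 in Tyrobp KO. At least 3 were found in 229 genes of each list, and at least 5 in 49 WT and 51 Tyrobp KO genes. Pclo, which encodes piccolo, the partner of bassoon at the active zone, had the most, with 16 in WT and 14 in Tyrobp KO. Its WT peaks covered 9300 bases with fold enrichments from 1.42 to 7.09, and its Tyrobp KO peaks 5823 bases with 1.78 to 9.15. The histone methyltransferase gene Kmt2d had 8 in each list (2.09 to 13.6 in WT, 1.91 to 12.2 in Tyrobp KO), in exons 11 to 49 of 55. The homeobox gene Zfhx4 had 10 and 8, and Dst, which encodes the cytoskeletal linker dystonin, 13 and 8. Some of the Dst peaks overlapped each other, and such sharing of exonic bases with another internal-exon peak of the same list affected 145 WT and 128 Tyrobp KO peaks (3.80% and 3.43%). Helz2 had 8 and 8, Dnhd1 7 and 7, 5830417I10Rik 8 and 6, and Bod1l 7 and 6. Ank3, which encodes ankyrin-G of the axon initial segment, had 6 and 7, and the protocadherin gene Fat3 6 and 9.

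In several of these genes the peaks crowded into a single exon. In Ank3, 4 of the 6 WT peaks and 4 of the 7 Tyrobp KO peaks were in the same exon (exon 6 of 9 of the annotated transcript, chromosome 10). The first of these had a fold enrichment of 5.98 in WT and 6.65 in Tyrobp KO and ran over 1261 and 1231 bases. The last had 2.18 in WT and 4.64 in Tyrobp KO. In exon 10 of 26 of Fat3, WT had 3 peaks with fold enrichments of 8.1, 8.35 and 6.65, and Tyrobp KO had 4, with 7.24, 7.47, 2.05 and 8.01 in the order of position. The additional Tyrobp KO peak was the weakest of the 4. In exon 5 of 20 of Pclo, the highest peaks of the lists overlapped, with 4.92 in WT and 6.1 in Tyrobp KO.

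**Figure D3:**
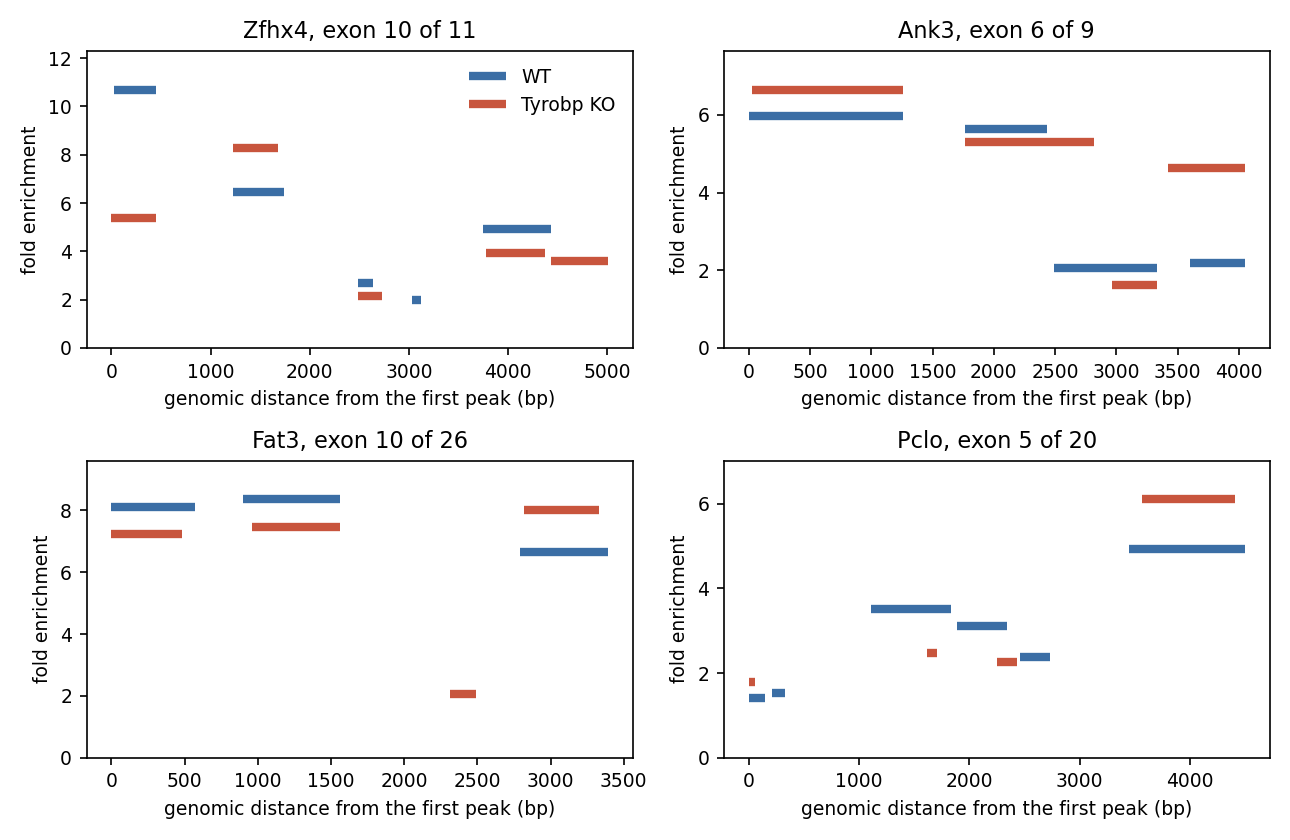
Single-block peaks annotated to 4 internal exons, as lines from the start to the end of each peak at the height of its fold enrichment, against genomic distance from the first peak in base pairs (Fat3 lies on the minus strand, so its transcript runs from right to left). Most peaks overlap a peak of the other genotype, and some do not, such as the Tyrobp KO peak at 2.05 in Fat3. Peaks of more than 1 block, among them the last WT peak of the Zfhx4 exon, are not drawn.

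Genes of 8 lists were counted for internal-exon peaks in both genotypes. Among all genes with a peak of any class, 16.5% in WT and 15.5% in Tyrobp KO had one in an internal exon. That background includes genes with too few exons to have an internal one. The lists were also chosen with earlier results of these data known, so their shares describe these genes and are no test of enrichment. Among ankyrin, spectrin and microtubule scaffold genes 16 of 21 had such a peak in each list, and the 16 were the same genes. Plec, which encodes the cytolinker plectin, had a WT peak of 5459 bases in exon 32 of 33 with a fold enrichment of 11.3. The Tyrobp KO peak of lowest FDR there had 2340 bases with 7.32. Plec had 2 internal-exon peaks in WT and 3 in Tyrobp KO, so these peaks are not like for like. Akap9, an anchoring protein for kinase A at the centrosome and Golgi, had 4 peaks in WT and 6 in Tyrobp KO, those of the lowest FDR at 5.73 and 5.66. Mapt, the tau gene, had none in either list. Among chromatin regulator genes 30 of 34 had a peak in WT and 28 in Tyrobp KO, with all 28 also in WT. Examples are the methyltransferase genes Kmt2a (exon 27 of 36, fold enrichment 10.8 over 2129 bases in WT and 5.9 over 1110 bases in Tyrobp KO) and Nsd1, the chromatin remodelling subunit Arid2 (10.2 and 9.84) and the helicase Chd6 (9.63 and 6.79). In that Kmt2a exon Tyrobp KO had 3 single-block peaks, which together covered 1771 bases, and the 1110 bases are 1 of them. The Nsd1 peaks of lowest FDR in the lists were in different exons, in exon 2 with 11.5 in WT and in exon 3 with 7.19 in Tyrobp KO.

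Among presynaptic active zone genes, 11 of 15 had an internal-exon peak in WT and 9 in Tyrobp KO. Besides Bsn and Pclo, these included the vesicle-priming genes Unc13a, with 15.7 in WT and 13.4 in Tyrobp KO, and Unc13c, with 12.6 and 9.37, and Rimbp2, which links calcium channels to the release machinery, with 5.62 and 5.73. The Unc13c peaks differed in extent, with 1437 bases in 3 blocks in WT and 689 in 1 block in Tyrobp KO. The 4 liprin genes of the list (Ppfia1, Ppfia2, Ppfia3 and Ppfia4) had none. Postsynaptic scaffold genes had fewer, 5 of 15 in WT and 4 in Tyrobp KO, although all 15 had a peak of some class in WT. Shank2, a scaffold protein of the postsynaptic density, had 5.63 over 2460 bases in WT and 3.91 over 451 bases in Tyrobp KO in exon 22 of 23. It had 1 internal-exon peak in WT and 3 in Tyrobp KO. Dlgap4, which binds the scaffold below the receptors, had 3.6 and 2.67 in exon 3 of 13.

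Of 18 RNA processing genes, 12 had an internal-exon peak in WT and 13 in Tyrobp KO. Prrc2a, itself described as an m6A reader, had a 600-base peak at the same place in exon 16 of 31, with 14.5 in WT and 11.2 in Tyrobp KO. Its relative Prrc2b had 1768 bases in exon 16 of 32, with 8.28 and 6.72, and the splicing cofactor Son 6.84 and 8.25 in exon 3 of 12. Of 10 DNA repair genes, 6 had a peak in WT and 5 in Tyrobp KO. Rif1, which acts in double-strand break repair, had 13.2 and 12.6 in exon 30 of 36, and Mdc1 8.96 and 10.3 in exon 5 of 16. The helicase gene Blm had 18 in WT and 5.66 in Tyrobp KO, at peaks of different extent (450 and 510 bases).

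Of the 15 writers, erasers and readers of m6A, 14 had a peak of some class in each list, and the same 4 had one in an internal exon. They were Zc3h13 and Virma, which are regulatory subunits of the writer complex, the demethylase gene Fto and the reader gene Ythdf1. Zc3h13 had 7.54 in WT and 7.58 in Tyrobp KO (exon 11 of 19), Virma 6.49 and 7.55 (exon 7 of 13) and Ythdf1 6.49 and 6.16 (exon 4 of 5). The Fto peaks, 2.78 and 3.06 in exon 2 of 9, overlap in space, but the WT row names a gene on the opposite strand. Mettl3, Mettl14, Wtap and Alkbh5 had none. Of 16 basement membrane and collagen genes, 11 had a peak of some class in WT and 13 in Tyrobp KO. In an internal exon, 1 had a peak in WT and 2 in Tyrobp KO. The shared gene was Col6a3, with 6.21 and 6.25 in exon 38 of 44.

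**Figure D4:**
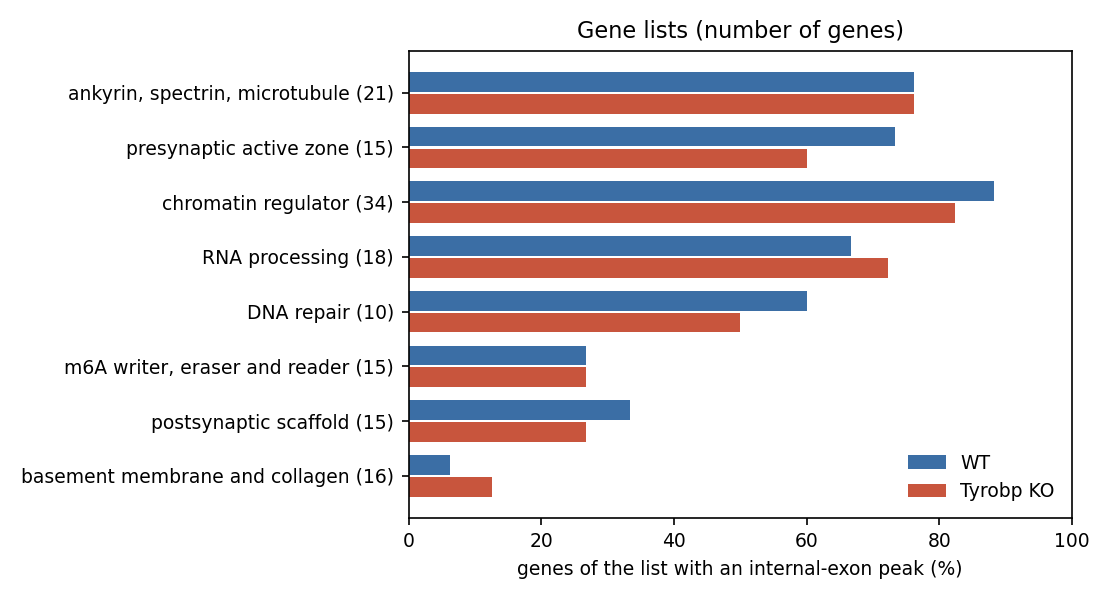
Percent of the genes of each of the 8 lists (number of genes in brackets) with at least 1 internal-exon peak in WT and in Tyrobp KO. Scaffold and chromatin regulator genes stand highest, with 16 of 21 in both genotypes and 30 and 28 of 34, and basement membrane and collagen genes lowest, with 1 and 2 of 16. The lists were chosen with earlier results of these data known.

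GO terms held by the files were counted as shares with no test. They cover 2188 WT and 2138 Tyrobp KO genes with an internal-exon peak, fewer than the 2674 and 2589 in the lists. The background was 12644 and 12927 genes with a peak, fewer than the 16219 and 16664 in the lists. Microtubule binding was listed for 2.65% of these WT genes with an internal-exon peak and 1.33% of the background genes (2.57% and 1.38% in Tyrobp KO). Nucleus was listed for 38.5% against 33.4% (38.0% and 33.4%), DNA binding for 12.2% against 10.04% (12.3% and 10.04%), and ATP binding for 10.6% against 8.62% (11.4% and 8.64%). Membrane was listed less often, for 31.3% against 38.0% (31.5% and 38.3%). Synapse was listed for 4.39% against 4.18% (4.21% and 4.15%). Genes matched to RefSeq by symbol (2478 WT and 2403 Tyrobp KO genes) were protein coding in 88.0% and 88.6% and long noncoding RNAs in 10.5% and 10.2%. In 642 WT genes (24.0%) and 569 Tyrobp KO genes (22.0%) the internal-exon peaks were the only peaks of the gene.

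Of 41 cell type markers, 36 had a peak of some class in WT and 34 in Tyrobp KO, and 3 and 5 had one in an internal exon. Of 9 microglial markers 1 had an internal-exon peak, Cx3cr1 in Tyrobp KO (5.79 in exon 2 of 3), and none of the neuronal or astrocyte markers had one in either list. Prox1, a marker of dentate granule neurons, had one in Tyrobp KO (7.17 in exon 2 of 5). Cx3cr1 and Prox1 each had a WT peak of another class, so these entries are not peaks gained in a gene without any. Of the 6 oligodendrocyte markers, Mag and Cnp had one in both. Cnp was listed with 3.02 in WT and 3.22 in Tyrobp KO. The endothelial marker Pecam1 had 1.56 and 1.64. In whole tissue, fewer cells of a type and less RNA per cell cannot be told apart.

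The question of whether internal-exon methylation differs between the genotypes was addressed first by presence. Of the WT internal-exon peaks, 1007 (26.4%) overlapped no Tyrobp KO peak on the same strand, against 21.4% of all WT peaks, and of the Tyrobp KO peaks 790 (21.2%) overlapped no WT peak, against 23.6% of all Tyrobp KO peaks. With strand ignored these counts were 976 and 738, or 25.6% and 19.8% of the internal-exon peaks, against 20.0% and 22.1% of all peaks. The WT share was thus above its background and the Tyrobp KO share below it, while the Tyrobp KO list was the longer one. The WT excess was not particular to internal exons. On the same strand, 73.6% of WT and 78.8% of Tyrobp KO internal-exon peaks overlapped the other list. This was 73.6% and 75.7% for the 5′ UTR, 63.9% and 67.1% for first exons, and 69.1% and 69.4% for last exons. In the 3′ UTR it was 87.2% and 80.3%. Peaks of 1 list only were short, with median widths of 151 bases in WT and 150 in Tyrobp KO, against 420 and 390 for shared peaks. Their median fold enrichment was 3.17 in WT and 4.13 in Tyrobp KO, against 4.64 and 4.52. Among internal-exon peaks with an FDR below 1e-05, 89.1% in WT and 94.8% in Tyrobp KO overlapped a peak of the other list. The same share over all peaks at this FDR is not given here, so these values are not read as particular to internal exons. When the best partner was sought, it was again in an internal exon for 85.7% of the shared WT peaks and 84.4% of the shared Tyrobp KO peaks.

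Among peaks without any overlap in the other list, on either strand, the 5 of lowest FDR in each genotype were of low enrichment. In WT they were 2 peaks of Ppp1r9b, which encodes spinophilin of dendritic spines (1.32 in exon 5 of 10 and 1.48 in exon 2), Nptn, which encodes the synaptic adhesion protein neuroplastin (1.96), Prdm8 (3.44, exon 4 of 5) and App, the amyloid precursor protein gene (1.41 over 4 blocks, exon 7 of 18, log10 FDR -117). In Tyrobp KO they were Sept7, a septin gene (1.55), 1810022K09Rik (2.38), the proteasome subunit Psmd1 (1.38), Tcaf1 (1.58) and Gclc, which makes the first step of glutathione synthesis (1.62, log10 FDR -26.8). Fold enrichments were below 2 in 4 of the 5 peaks of each genotype. The log10 FDR of the WT peaks, from -206 to -117, was stronger than that of the Tyrobp KO peaks, from -59.1 to -26.8.

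The heights of matched peaks were then compared. In 1601 pairs an internal-exon peak of each list covered at least 50% of the other's span, each the best partner of the other. Their median log2 ratio of fold enrichment, Tyrobp KO over WT, was -0.02 (interval -0.04 to 0), with an SD across pairs of 0.59. Over all 18044 matched pairs it was 0.05 (0.04 to 0.06), of which 10214 were 3′ UTR pairs with a median of 0.08. The median was -0.04 in first-exon, -0.01 in last-exon, -0.02 in single-exon and 0.02 in 5′ UTR pairs. Internal-exon pairs thus stood near the other exon classes and below the 3′ UTR pairs. At least 2-fold higher in Tyrobp KO were 56 internal-exon pairs, or 3.50% (2.65 to 4.52), against 5.44% of all matched pairs. At least 2-fold lower were 70 pairs, or 4.37% (3.42 to 5.49), against 4.82%. The share of higher pairs was below its background, and the interval of the share of lower pairs held its background. These intervals count peaks and test no genotype difference. The background mixes classes that differ. Higher and lower shares were 4.07% and 2.87% in 3′ UTR, 7.18% and 6.85% in 5′ UTR and 8.79% and 9.45% in first-exon pairs. They were 9.20% and 8.82% in last-exon and 9.63% and 11.4% in single-exon pairs. In the 1345 pairs with an FDR below 1e-05 in both lists, 31 (2.30%) were higher and 30 (2.23%) lower, against 4.09% and 3.14% of all such pairs. Across the 1601 pairs, which share neither libraries nor samples but come from 1 call per genotype, Pearson's r of log2 fold enrichment was 0.825, against 0.822 over all matched pairs.

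**Figure D5:**
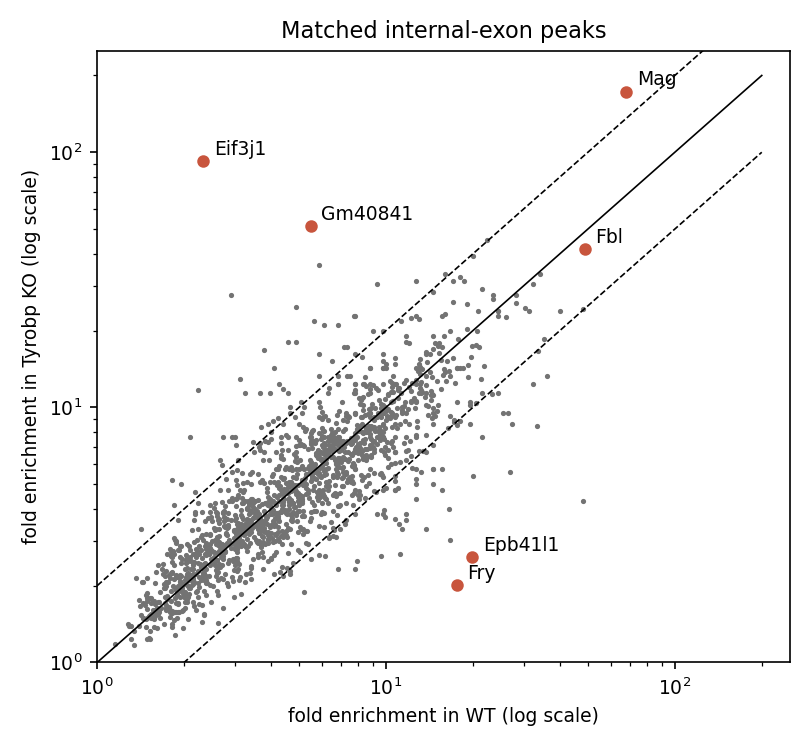
Fold enrichment of the 1601 matched internal-exon peaks in WT and in Tyrobp KO, both on log axes, with the line of equality (solid) and 2-fold lines (dashed). Most pairs lie between the 2-fold lines, and named pairs far outside are Eif3j1 (2.33 and 92.4) and Fry (17.6 and 2.01).

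The pair with the highest enrichment in both lists was in Mag, which encodes myelin-associated glycoprotein. The same 181 bases of exon 6 of 13 (chromosome 7, minus strand, 30908797 to 30908977) had a fold enrichment of 67.9 in WT and 173 in Tyrobp KO, a log2 ratio of 1.35. Its log10 FDR was -43.1 and -111. Fbl, which encodes the nucleolar methyltransferase fibrillarin, came next with 48.8 in WT and 41.6 in Tyrobp KO over the same 3 blocks. Triobp, an actin-bundling protein, had 34.2 and 33.4, Unc13b 32.2 and 30.5, and 2310034O05Rik 28.3 and 27.6. Apart from Mag, these pairs had log2 ratios from -0.23 to -0.03. They were ranked by the lower of the WT and Tyrobp KO values, which leaves out pairs high in 1 genotype only. Their closeness is therefore in part set by the ranking. The highest fold enrichment of any internal-exon peak, 229 in Tyrobp KO, was in the keratin gene Krt9 (log10 FDR -205), a gene named here after its value was seen.

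The pairs furthest apart often differed in extent as well. Eif3j1, a subunit of translation initiation factor 3, had 2.33 in WT and 92.4 in Tyrobp KO, with 210 bases in WT and 569 in Tyrobp KO (exon 3 of 8). Gm40841 had 5.48 over 391 bases and 51.5 over 1619 bases, and Mir670hg 2.91 over 388 bases and 27.6 over 656 bases. Xdh, which encodes xanthine dehydrogenase, had 3.78 and 16.8 (391 and 540 bases), and the transcription factor subunit Taf13 had 3.13 and 12.9 at nearly equal widths of 269 and 298 bases. In the other direction, Fry, which encodes a microtubule-binding protein, had 17.6 over 331 bases in WT and 2.01 over 241 bases in Tyrobp KO in exon 59 of 61, a log2 ratio of -3.13. Epb41l1, a spectrin-actin linker of neurons, had 19.9 over 1618 bases and 2.58 over 330 bases, and Jarid2, a Polycomb cofactor, 7.94 over 1320 bases and 2.49 over 300 bases. Wrap73 had 26.9 and 5.6 (539 and 360 bases), and Simc1 33.2 and 8.47 (658 and 568 bases). In all 5 pairs lower in Tyrobp KO the Tyrobp KO peak was the narrower one, and in all 5 pairs higher in Tyrobp KO it was the wider one. The part of peak width in these ratios was not tested.

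The pairs within the gene lists are given against the 5.44% and 4.82% of all matched pairs that were at least 2-fold higher and lower. Of the 40 matched pairs in scaffold genes 1 was at least 2-fold higher and none lower in Tyrobp KO (median log2 ratio -0.02, range -0.61 to 1.09). In the 49 pairs of chromatin regulator genes none was higher and 1 lower (-0.01, range -1.06 to 0.65). None of the 18 active zone pairs (median 0.03), 13 RNA processing pairs (0.01), 6 DNA repair pairs (0.39) or 4 pairs of m6A machinery genes (-0.01) passed 2-fold in either direction. The 3 postsynaptic scaffold pairs had a median of -0.43 and the 1 basement membrane and collagen pair stood at 0.01, also with none past 2-fold.

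Of the 509 internal-exon rows in the table comparing the genotypes, 299 overlapped a peak of both lists, 101 a WT peak only, 87 a Tyrobp KO peak only and 22 neither. They lay in 461 genes, with a median width of 301 bases and a median position of exon 5 of 11, as in the genotype lists. For the 161 rows with a matched peak in each list, the median log2 ratio of fold enrichment was -0.19 (interval -0.30 to 0), with 67 rows above 0 and 93 below. Over all 2194 rows matched in this way it was 0.28 (0.24 to 0.31). At least 2-fold higher in Tyrobp KO were 15 of the 161 rows (9.32%) and at least 2-fold lower 19 (11.8%), against 11.7% and 9.43% of all 2194 rows. How rows entered the table is not given in the sources used here, and they come from the same libraries as the lists.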

How the data were processed

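MeRIP-seq reads were trimmed with fastp and aligned with HISAT2, and peaks were called with exomePeak and annotated with ChIPseeker by the authors, with versions not given in the sources used here. The deposited lists give 1 fold enrichment (a ratio of IP to input) and 1 log10 FDR score per peak and genotype, with the 3 samples of a genotype pooled. An FDR of 0 is listed as minus infinity. Valid read counts and GC percent per library were deposited by the authors. The authors' columns of the difference between genotypes (log2 fold change, p-value and log10 FDR) were not used.

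ChIPseeker gives each peak 1 exon, tries UTRs before exons and ignores strand, so a peak that reaches a UTR is not in an internal exon. Genes are those of the annotated exon, which differed from the gene of the row in 7.11% of WT and 6.84% of Tyrobp KO peaks. The strand of a peak is that of the row's gene. 124 WT and 128 Tyrobp KO peaks had an exon gene with no name in the files. Coordinates are those of the files, where the limits of the Mir671 hairpin are those of RefSeq GRCm38.p6. Widths are sums of blocks.

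Shares have exact Clopper-Pearson and medians exact order-statistic 95% intervals (Python 3.11.15, scipy 1.17.1, pandas 2.3.3). Matching and intervals were tested on simulated data. Named genes were, from both lists, the 10 genes with the most internal-exon peaks, the 5 matched pairs of highest fold enrichment, the 5 furthest apart in each direction (these 2 sets with an FDR below 1e-05), the 5 widest single-block pairs, the 5 peaks of lowest FDR found in 1 list only, and up to 4 members of each gene list, of which 1 is not reported here. Pairs of highest fold enrichment were ranked by the lower value of the genotypes, and the widest pairs by the smaller width. Members and lists were chosen with earlier results of these data known. Ank2, Chpf2 and Bhlhb9 are named because their sequence was held. Sequences are from RefSeq (GRCm38.p6), with only bases upstream of a gene's start taken from promoter windows. Alternatives changed the FDR, fold enrichment, block, annotation, overlap, matching, centring and fold settings, and strand was added after seeing the data.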

Additional observations from a re-analysis of the deposited data

How the results depend on the processing

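Of 46 alternative values, 28 moved beyond the counting interval or 1.5 times a count. Shares, widths, fold enrichments and counts have no direction that could change. The median log2 ratio has one, and it stayed negative in every alternative. With an FDR below 1e-05 the median fold enrichment was 4.13 in WT and 4.26 in Tyrobp KO, the median width 450 and 433.5 bases, and the overlap with the other list 83.3% and 91.2%. With this FDR in both lists, 31 matched pairs were at least 2-fold higher and 30 lower, against 56 and 70 in the main setting. The surplus of lower pairs thus did not hold in this setting. In peaks of 1 block, internal exons held 9.15% of WT and 8.66% of Tyrobp KO peaks, with a median fold enrichment of 3.65 and 3.90 and widths of 270 and 271 bases, and 28 pairs were higher and 28 lower. A fold enrichment of at least 4 left shares of 9.52% and 9.11%. Counting only exon-annotated peaks in transcripts of at least 3 exons raised the shares to 53.2% and 52.1%, since UTR peaks leave the denominator. A reciprocal overlap of 50% lowered the overlap to 45.2% and 46.5%, and ignoring strand gave 80.2% in Tyrobp KO. A reciprocal overlap of 80% left 30 pairs higher and 42 lower, a fold of 1.5 gave 156 and 188, and centring on all matched pairs put the median log2 ratio at -0.074.

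No paired analysis was possible because the peaks were called on the pooled replicates, so no value carries a replicate number. No replicate was left out for the same reason. The deposited values do not show which differences exceed the spread between mice. Fold enrichments were often repeated, with 6.84 in 144 WT and 6.67 in 141 Tyrobp KO internal-exon peaks.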
